A study of Mus musculus with 19 samples.

Results

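The JAK1 inhibitor dose series comprised 6 of the 19 arrays of the study, taken as the samples whose titles carry the code number of the inhibitor labelled JAK1. Natural killer (NK) cells, innate lymphocytes that kill infected or transformed targets, had been enriched by negative selection from spleens of 6-week-old male C57BL/6 mice. All 6 samples received interleukin-2 (IL-2, 250 U/ml) together with the inhibitor, at 0.0625 µM (1 sample), 0.25 µM (2 samples), 1 µM (2 samples) and 4 µM (1 sample). They were set beside 4 samples with IL-2 and no inhibitor and 3 untreated samples. Also used were 6 samples with IL-2 and an inhibitor labelled JAK3 at 0.25, 1 and 4 µM (2 samples each). These entered the fits, and those at 0.25 and 4 µM gave 1 tested comparison. Culture lasted 8 h per the design text, although the titles give that time for only some samples. Nothing in the labels states that same-group samples were taken from different mice or cultures, so p-values reflect only how far these samples scattered, which may be technical. Neither structure nor selectivity of the inhibitors is given in the sources used here.

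IL-2 binds a receptor on NK cells whose beta chain carries the kinase JAK1 and whose common gamma chain carries JAK3. The activated kinases phosphorylate STAT5, which induces feedback inhibitors, survival genes and effector genes such as granzyme B and interferon-gamma. JAK1 is also used by the receptors for type I interferons and for interferon-gamma, which induce antiviral genes. The dose series addresses which IL-2-dependent transcripts are lost at low doses of the inhibitor and which only at high doses.

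Each sample was hybridised to 1 Affymetrix Mouse Gene 1.0 ST array, and 19752 genes were analysed as log2 intensity. The deposited values lie on 2 scales: 7 samples have a median log2 intensity of 7.49 to 7.59 and 12 samples one of 5.7 to 5.9. Among the 7 samples of the higher scale, 20.0% of probe sets had an identical value in several samples, against 0.0% on the lower scale. Of the dose series, sample 1 at 0.25 µM and sample 1 at 1 µM lie on the higher scale, and the other 4 samples, 1 for each dose, lie on the lower one. Every fit therefore held a term for the scale, and all single-sample values below are scale-adjusted log2 intensities. That term does not restore differences lost to identical values. The 2 samples at 0.25 µM correlated at 0.964 and the 2 at 1 µM at 0.962 (Pearson's r over genes, values as deposited). Detection calls were not used here, so whether a transcript lay above background was not judged. The values of one gene are not compared with those of another.

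The slope of log2 intensity per 4-fold step of dose was tested for every gene with limma, with Benjamini-Hochberg adjustment over all genes. With rising dose, 342 genes fell (1.73% of all genes tested) and 196 rose (0.992%), at an adjusted p under 0.05. At an unadjusted p under 0.05 there were 4018 genes, and the median slope of all genes was -0.04. In these bulk samples fewer cells of a type and less RNA per cell cannot be told apart. The balance of the directions depended on the scaling and on the samples. After quantile normalization of all arrays, 547 genes fell and 517 rose, and without the 4 µM sample 92 fell and 184 rose. With both upper doses set against both lower doses in place of a line, 199 fell and 284 rose. Within the lower scale alone all 538 called genes had a slope of the same sign, and within the higher scale 528 had a difference of that sign between 0.25 and 1 µM. These samples also gave the calls, so the shared signs are no separate support. The count rested strongly on the single sample at 0.0625 µM: without it 56 genes were called, and without the 4 µM sample 276 were. Without sample 1 at 1 µM there were 322 calls, without sample 1 at 0.25 µM 354, and without sample 2 at 1 µM 1210.

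Most genes that fell were genes that IL-2 had raised. Of the 342 that fell, 213 were higher in cells with IL-2 than in untreated cells (6.56% of all genes were), none was lower, and 129 were neither. Of the 196 that rose, 127 were lower with IL-2 than untreated (2.59% of all genes were), 1 was higher, and 68 were neither. The single riser that IL-2 had raised was Eif2s2, a subunit of the translation initiation factor eIF2. Its slope was 0.38 ± 0.09 (SE, limma adjusted p = 0.026), with a low value at 0.0625 µM (6.07, against a mean of 7.46 ± 0.20 with IL-2 alone, SD, n = 4). The slope was 0.27 without the 0.0625 µM sample, 0.32 without the 4 µM sample and -0.0039 without both. With the probe sets of each gene averaged it was 0.18 (limma adjusted p = 0.16). The slope and the IL-2 contrast share only the term for the scale and the estimate of spread.

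The 10 largest falls, with predicted genes passed over, were all in chemokines, interferon-stimulated genes and NK effector genes. Cxcl9, a chemokine that attracts T cells and NK cells and is induced by interferon-gamma, headed them. With IL-2 alone it stood at 10.42, 10.31, 10.97 and 10.72, at 0.0625 µM at 10.14, at 0.25 µM at 9.49 and 8.71, at 1 µM at 6.72 and 6.24, at 4 µM at 5.37, and in untreated cells at 5.67, 6.23 and 6.35. No 2 neighbouring doses overlapped, and the 4 µM value lay below all untreated samples. Its slope was -1.78 ± 0.15 per step (SE; limma adjusted p = 1.27e-06). Gzmb, which encodes the granule protease granzyme B, had values of 11.41, 11.46, 12.17 and 12.03 with IL-2 alone, 11.43 at 0.0625 µM, 10.55 and 10.28 at 0.25 µM, 8.97 and 7.22 at 1 µM, 6.89 at 4 µM, and 7.04, 5.88 and 6.80 in untreated cells. The 0.0625 µM sample lay among the IL-2 samples and the 4 µM sample among the untreated ones, and the samples at 1 µM lay further apart than those at 0.25 µM. Its slope was -1.66 ± 0.19 (limma adjusted p = 4.84e-05). The other 8 were Oasl2 (-1.30), an oligoadenylate synthetase-like protein, the dendritic cell attractant Xcl1 (-1.29), Ifng (-1.26), the interferon-stimulated chaperone Rtp4 (-1.25), the nucleic acid sensor Zbp1 (-1.22), the chemokine Cxcl10 (-1.14), the guanylate-binding protein Gbp4 (-1.09) and the antiviral protein Ifit3 (-1.09).

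Ifng, the gene of interferon-gamma, lay below every IL-2 sample at 0.0625 and 0.25 µM and fell furthest between 0.25 and 1 µM. It stood at 9.78, 9.76, 10.27 and 9.90 with IL-2 alone, 9.26 at 0.0625 µM, 9.17 and 8.69 at 0.25 µM, 7.19 and 6.64 at 1 µM, 5.99 at 4 µM, and 6.09, 6.27 and 6.09 in untreated cells. The gap between 0.25 and 1 µM was wider than the whole range within either dose. Its slope was -1.26 ± 0.12 (limma adjusted p = 7.65e-06).

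Calls of these genes differed in how far they rested on 1 sample. The naming rule given below took 95 genes, not all of them described here, and the slope of 58 of these passed the threshold. Of the 58, 25 did so without the 0.0625 µM sample, 47 without the 4 µM sample and 45 within the lower scale alone. Cxcl9, Gzmb, Ifng, Xcl1, Oasl2, Rtp4, Zbp1 and Gbp4 kept their call without each of the 6 samples in turn. Without the 0.0625 µM sample, Cxcl10 had a slope of -1.11 (adjusted p = 0.076), Ifit3 one of -0.89 (adjusted p = 0.19), Usp18 -0.76 (adjusted p = 0.28) and Iigp1 -0.50 (adjusted p = 0.11).

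**Figure D1:**
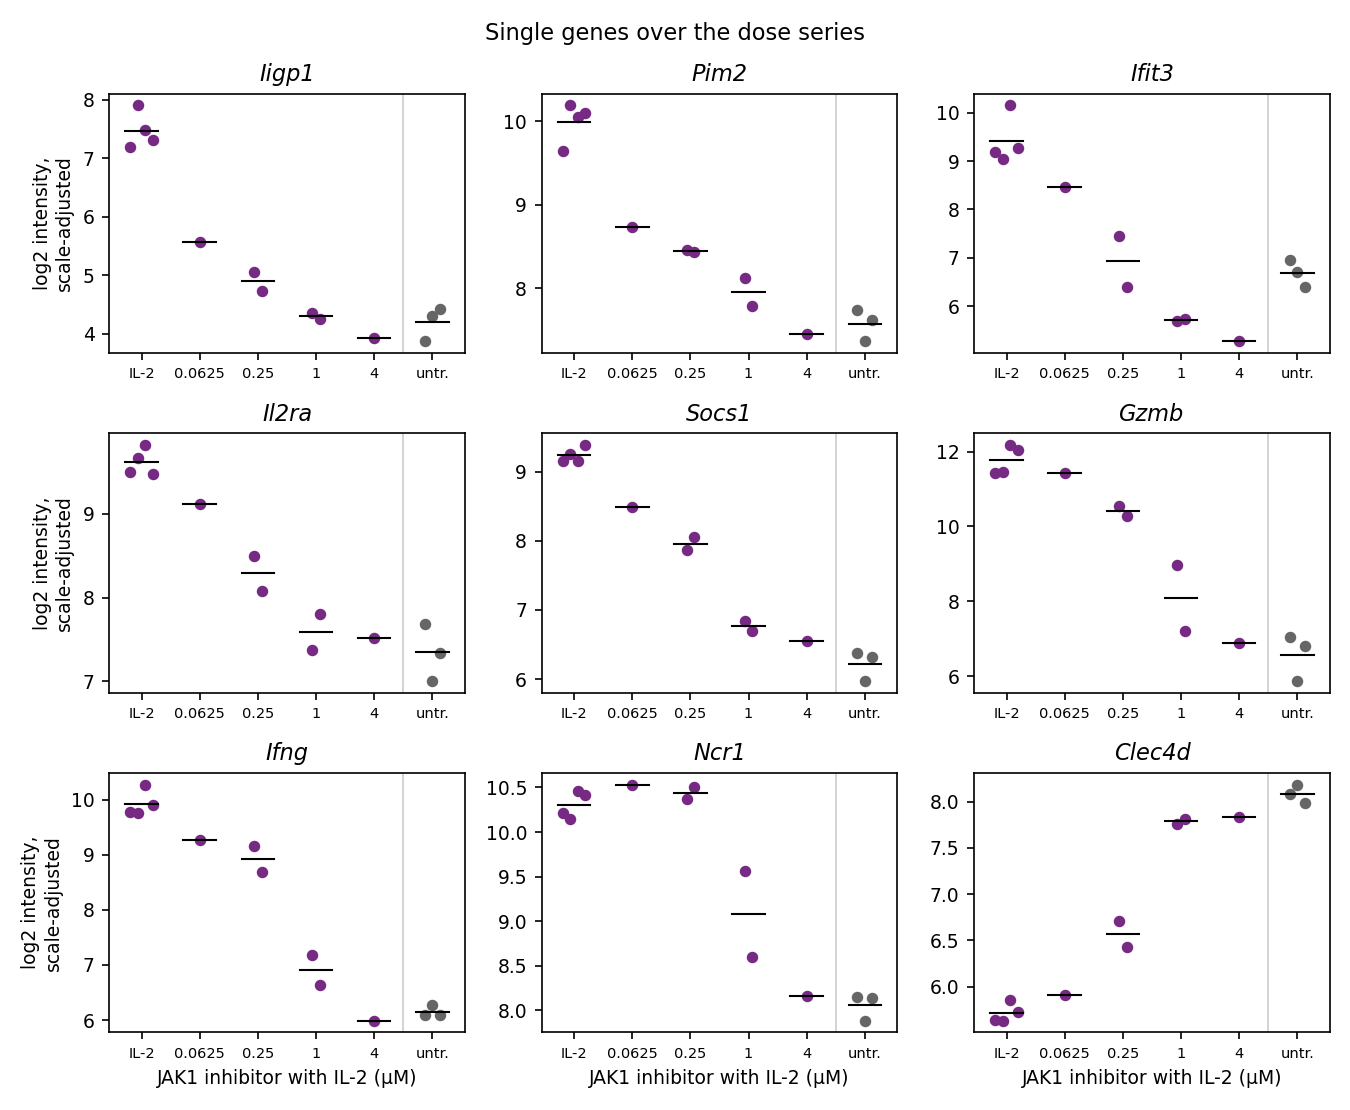
Scale-adjusted log2 intensity (y axis) of 9 genes in each sample with IL-2 alone, with IL-2 and the JAK1 inhibitor at 4 doses in µM (x axis), and untreated; points are samples and bars are group means. Iigp1 and Pim2 are already low at 0.0625 µM, Ncr1 stays at the level of IL-2 alone through 0.25 µM, and Clec4d runs in the opposite direction.

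To separate early from late loss, the 334 genes that IL-2 raised at least 2-fold over untreated cells (adjusted p under 0.05) were followed. Each was placed on a scale of log2 intensity with the untreated mean at 0% and the IL-2 mean at 100%. Percent left is thus a share of the log2 rise, not of the amount of transcript. The same fold drop takes a larger share of a small rise than of a large one. A gene was called lost from the lowest dose at and above which every group mean was at or below 50%. This is a description of group means and carries no test. By it, 54 genes were lost from 0.0625 µM, 125 from 0.25 µM, 141 from 1 µM and 11 from 4 µM, and 3 were not lost. The low-dose class, lost from 0.0625 or 0.25 µM, thus held 179 genes (53.6%) and the high-dose class 152 (45.5%). Many genes lay near the border at 0.25 µM: 51 had 40 to 50% left there and 45 had 50 to 60%. In 152 of the 334 genes both samples at 0.25 µM were at or below 50%, in 124 both were above it, and in 58 they were split. With a loss of 75% in place of 50%, 60 genes were lost by 0.25 µM, 236 only at 1 or 4 µM, and 38 not at all. The number of induced genes also depended on the untreated samples: without untreated sample 2 the low-dose and high-dose classes held 190 and 304 genes, and without untreated sample 3 they held 146 and 94.

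The slope fell in 5 of the 54 genes lost from 0.0625 µM, 67 of 125 lost from 0.25 µM, 93 of 141 lost from 1 µM and 2 of 11 lost from 4 µM, against 1.73% of all genes. Of the genes lost from 0.0625 µM, 1 (Iigp1) was lower than with IL-2 alone at 0.0625 µM by its own test, as were 0.0152% of all genes. At 0.25 µM, 44 of these 54 were lower than with IL-2 alone, as were 95 of the 125 genes lost from 0.25 µM and 26 of the 141 lost from 1 µM (1.52% of all genes). At 1 µM 48, 113 and 121 genes of these 3 classes were lower than with IL-2 alone (2.31% of all genes), and at 4 µM 45, 116 and 114 (2.63%). The classes were drawn from the same values, so these counts describe them and are no separate support.

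**Figure D2:**
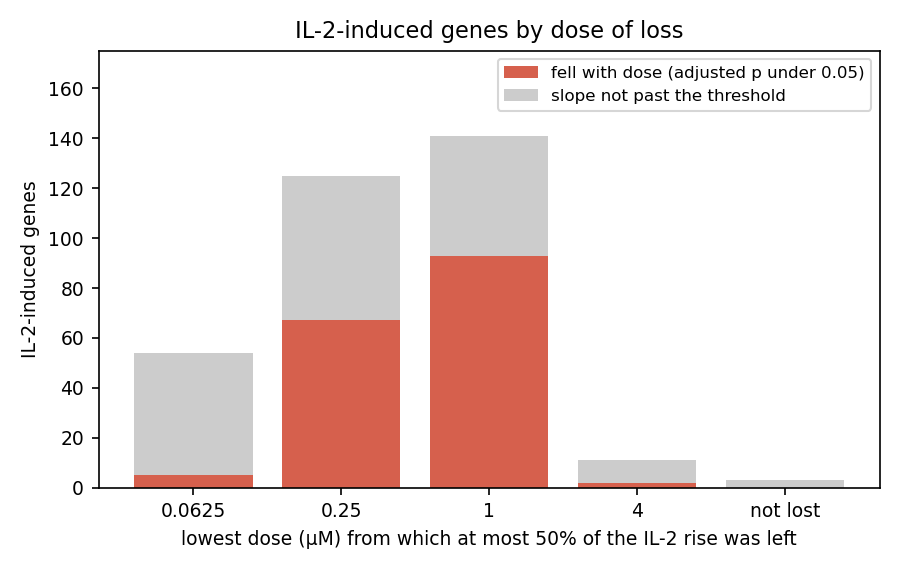
Number of IL-2-induced genes (y axis) by the lowest dose in µM from which at most 50% of the IL-2 rise was left (x axis); the red part of each bar is the genes whose slope fell with dose. The bars hold 54, 125, 141, 11 and 3 genes.

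Over all 334 genes, the mean percent of the IL-2 rise left was 70.8% at 0.0625 µM, 48.1% in both samples at 0.25 µM, 28.2% and 12.4% at 1 µM, and -4.11% at 4 µM. The IL-2 samples themselves spanned 82.1 to 112% and the untreated samples -21.0 to 18.5%, so 1 µM sample 2 and 4 µM lay within the range of untreated cells and 0.0625 µM lay below that of IL-2 alone. In the low-dose class the median was 63.0% at 0.0625 µM, 32.1% and 26.7% at 0.25 µM, 21.4% and 9.84% at 1 µM, and -13.0% at 4 µM. In the high-dose class it was 83.7%, then 66.6% and 73.1%, then 41.6% and 19.8%, then 7.0% at the same doses. That the classes part at 0.25 µM follows from how they were drawn. With the JAK3 inhibitor at 0.25 µM, which took no part in the choice, the same low-dose class had medians of 29.6% and 38.7% and the high-dose class medians of 22.0% and 27.6%. These values share the IL-2 and untreated samples with those of the JAK1 inhibitor.

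**Figure D3:**
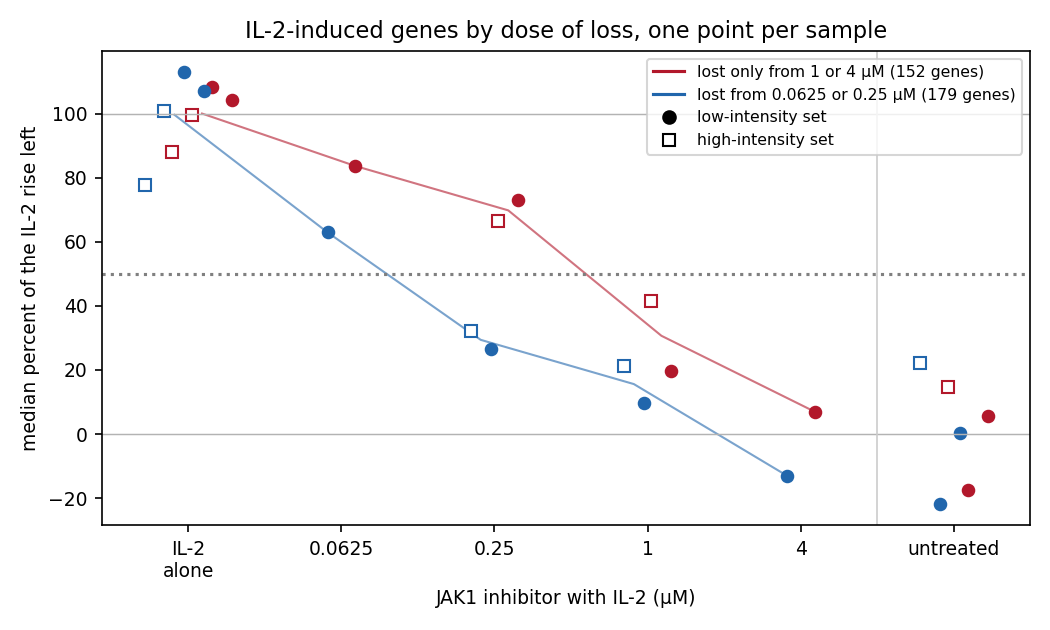
Median percent of the IL-2 rise left (y axis) in each sample for genes lost from 0.0625 or 0.25 µM (blue) and genes lost only from 1 or 4 µM (red), over IL-2 alone, the JAK1 inhibitor doses and untreated cells (x axis); lines join group means, filled circles are arrays of the lower scale and open squares of the higher one. The 2 samples at 0.25 µM lie at 32.1% and 26.7% in the blue class and at 66.6% and 73.1% in the red class.

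Promoters of both classes are shown to set the letters bound by interferon-activated and STAT factors beside the order of loss. Each is the 250 bases before the most upstream annotated start, 5′ to 3′ on the strand of the gene, from RefSeq (GRCm38.p6). They belong to 2 genes of each class, taken by the size of the IL-2 rise among genes with a usable entry: Cxcl10 (probe set 10531415) at chr5:92348890-92349139, minus strand, and Gbp5 (probe set 10496539) at chr3:142496684-142496933, plus strand, of the low-dose class, and Gzmb (probe set 10420308) at chr14:56262335-56262584, minus strand, and Cxcl9 (probe set 10531407) at chr5:92328080-92328329, minus strand, of the high-dose class. Capitals mark 2 motifs, searched on both strands. The interferon-response core, to which interferon-activated complexes and IRF factors bind, was read as GAAA, any 2 bases and GAAA again, and the core of STAT dimer sites as TTCNNNGAA.
Cxcl10: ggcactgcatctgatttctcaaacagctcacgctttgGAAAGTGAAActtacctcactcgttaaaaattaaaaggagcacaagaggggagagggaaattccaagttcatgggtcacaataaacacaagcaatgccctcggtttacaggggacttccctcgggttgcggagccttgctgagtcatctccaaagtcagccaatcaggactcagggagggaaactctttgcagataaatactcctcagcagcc
Gbp5: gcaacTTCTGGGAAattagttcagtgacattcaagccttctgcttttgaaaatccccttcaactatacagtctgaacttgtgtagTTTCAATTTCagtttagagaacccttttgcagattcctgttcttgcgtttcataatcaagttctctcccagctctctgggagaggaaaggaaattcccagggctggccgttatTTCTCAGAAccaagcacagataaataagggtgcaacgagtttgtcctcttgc
Gzmb: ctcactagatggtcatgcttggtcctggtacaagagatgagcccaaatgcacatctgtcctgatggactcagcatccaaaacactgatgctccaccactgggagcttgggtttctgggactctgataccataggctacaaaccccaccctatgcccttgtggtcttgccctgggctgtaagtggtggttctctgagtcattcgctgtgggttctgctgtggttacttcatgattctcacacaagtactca
Cxcl9: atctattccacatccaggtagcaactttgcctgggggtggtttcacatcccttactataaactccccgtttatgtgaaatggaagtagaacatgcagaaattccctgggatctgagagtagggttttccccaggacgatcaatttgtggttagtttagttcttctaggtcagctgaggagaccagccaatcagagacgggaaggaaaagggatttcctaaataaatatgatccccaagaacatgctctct
Cxcl10 held the interferon-response core at -213 to -204 from the start. Gbp5 held it at -165 to -156 and TTCNNNGAA at -245 to -237 and at -52 to -44. Gzmb and Cxcl9 held neither in this window, and variant forms of the 2 motifs were not searched. Over whole classes, the interferon-response core stood in 27 of 150 low-dose promoters with an entry (18%) and in 8 of 113 high-dose promoters (7.08%), against 2.91% of the 15435 promoters of measured genes and 3.05% of all promoters in the table. TTCNNNGAA stood in 9.33% of low-dose promoters and 13.3% of high-dose promoters, against 6.65% for measured genes and 7.14% for all. A match is a description of letters and does not show binding.

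Genes lost from 0.0625 µM were led by Iigp1, an immunity-related GTPase of the interferon response, the survival kinase gene Pim2, the antiviral genes Ifit2 and Ifit3b, and Ptgs2, which encodes cyclooxygenase-2. Iigp1 stood at 7.20, 7.91, 7.49 and 7.31 with IL-2 alone, 5.57 at 0.0625 µM, 5.06 and 4.73 at 0.25 µM, 4.35 and 4.26 at 1 µM, 3.93 at 4 µM, and 3.87, 4.31 and 4.43 in untreated cells. The sample at 0.0625 µM lay well under every IL-2 sample, by -1.90 from their mean (limma adjusted p = 0.0017), and the level went on down from there (slope -0.56 ± 0.09, adjusted p = 8.4e-04). Pim2 stood at 9.64, 10.19, 10.05 and 10.10 with IL-2 alone, 8.74 at 0.0625 µM, 8.45 and 8.43 at 0.25 µM, 8.12 and 7.79 at 1 µM, 7.45 at 4 µM, and 7.74, 7.36 and 7.62 in untreated cells. It showed the same order of doses, but its difference at 0.0625 µM of -1.26 had an adjusted p of 0.17 by limma. Its slope of -0.44 ± 0.10 (adjusted p = 0.017) was -0.50 without that sample (adjusted p = 0.22). Ptgs2 was at 5.56 in the 0.0625 µM sample, against 6.88 to 7.44 with IL-2 alone, a difference of -1.68 (adjusted p = 0.092), and it then lay between 4.77 and 5.57 at 0.25 to 4 µM. Its slope of -0.23 did not pass the threshold (adjusted p = 0.28).

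Pim1, the other Pim kinase gene of the panel, stood at 9.0, 9.79, 9.48 and 9.70 with IL-2 alone, 8.47 at 0.0625 µM, 8.30 and 8.49 at 0.25 µM, 8.94 and 8.79 at 1 µM, 8.49 at 4 µM, and 8.80, 8.12 and 8.32 in untreated cells. All doses lay below every IL-2 sample and no order by dose was seen (slope 0.09 ± 0.11, limma adjusted p = 0.67). The 3 genes that were not lost had slopes that did not pass the threshold: the secreted nuclease gene Dnase1l3 (0.12, adjusted p = 0.44), Bzw2 (0.02, adjusted p = 0.93) and Klra6, an NK receptor of the Ly49 family (-0.03, adjusted p = 0.90). Dnase1l3 stood at 6.43 at 0.0625 µM and 6.85 at 4 µM, against 7.24 to 7.76 with IL-2 alone. It was lower than with IL-2 alone by -0.99 at 0.25 µM (adjusted p = 0.0047) and -0.95 at 1 µM (adjusted p = 0.0024). Bzw2 was lower too, by -0.80 (adjusted p = 0.027) and -0.77 (adjusted p = 0.017). Klra6 belongs to a family of near-identical genes, so its probe set may take signal from relatives.

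Type I interferon-stimulated genes fell with dose and were mostly of the low-dose class. Of 37 measured, 28 fell with dose and none rose (all genes: 1.73% and 0.992%), with a median slope of -0.61 against -0.04 for all genes. IL-2 had raised 36 of the 37, and of the 34 raised at least 2-fold, 32 belonged to the low-dose class, against 53.6% of all 334 genes so raised. The exceptions among the 34 were Zbp1 and Ddx58, which were lost from 1 µM. The median percent left over the 34 was 74.0% at 0.0625 µM, 30.5% and 13.1% at 0.25 µM, 0.194% and -23.3% at 1 µM, and -36.7% at 4 µM. At 4 µM the list lay below the untreated samples, whose medians were 25.3%, -22.4% and -1.36%. Usp18, which removes ISG15 and restrains the type I interferon receptor, had 8.37 at 0.0625 µM, 7.38 and 6.84 at 0.25 µM, 6.55 and 6.32 at 1 µM and 5.56 at 4 µM, against 9.16 to 10.15 with IL-2 alone and 5.78 to 7.20 in untreated cells. Ifit3 had 8.46, then 7.45 and 6.41, then 5.70 and 5.73, then 5.28 at these doses, against 9.05 to 10.15 with IL-2 alone and 6.40 to 6.95 in untreated cells. From 1 µM on, each Ifit3 value was under the lowest untreated sample. Its slope was -1.09 ± 0.17 (adjusted p = 0.0011). Of the 37, 3 fell without the 0.0625 µM sample (0.248% of all genes did), without the 4 µM sample 17 (0.466%), and within the lower scale alone 26 (0.587%).

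Interferon-gamma-responsive genes divided between the classes much as all IL-2-raised genes did. Of 24 measured, 16 fell and none rose (all genes: 1.73% and 0.992%), with a median slope of -0.48. The 16 that IL-2 had raised at least 2-fold were split into 8 low-dose and 8 high-dose genes. Of all 334 genes so raised, 53.6% and 45.5% were in these classes. The median percent left over the 16 list members was 77.3% at 0.0625 µM, 53.6% and 47.3% at 0.25 µM, 27.0% and 6.94% at 1 µM, and -10.1% at 4 µM. Cxcl10 was at 8.49 at 0.0625 µM, 8.11 and 6.95 at 0.25 µM, 5.64 and 5.45 at 1 µM and 5.64 at 4 µM, against 9.47 to 10.19 with IL-2 alone and 5.98 to 6.50 in untreated cells. Its 4 µM value was thus no lower than those at 1 µM, whereas Cxcl9 stood at 5.37 at 4 µM, below both of its 1 µM samples. Irgm1, an immunity-related GTPase, fell with a slope of -0.99 ± 0.13 and was lost from 0.25 µM. Of the 24, 6 fell without the 0.0625 µM sample (0.248% of all genes), and without the 4 µM sample 11 (0.466%).

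IL-2 and STAT5 target genes were mostly of the high-dose class. Of 40 measured, 15 fell and none rose (all genes: 1.73% and 0.992%), with a median slope of -0.17. Of the 21 that IL-2 raised at least 2-fold, 4 were lost by 0.25 µM and 17 only at 1 or 4 µM (53.6% and 45.5% of all 334 genes so raised). The median percent left over the 21 was 79.9%, then 59.3% and 66.3%, then 40.1% and 18.6%, then 3.29%, at 0.0625, 0.25, 1 and 4 µM. Socs1, a feedback inhibitor of JAK kinases, stood at 9.15, 9.26, 9.15 and 9.39 with IL-2 alone, 8.50 at 0.0625 µM, 7.87 and 8.05 at 0.25 µM, 6.85 and 6.70 at 1 µM, 6.56 at 4 µM, and 6.37, 5.98 and 6.33 in untreated cells. The groups at successive doses did not overlap (slope -0.74 ± 0.09, limma adjusted p = 4.7e-05). Il2ra, the alpha chain of the IL-2 receptor and 1 of the 4 low-dose members, was at 9.11 at 0.0625 µM, 8.50 and 8.08 at 0.25 µM, 7.38 and 7.81 at 1 µM and 7.52 at 4 µM, against 9.48 to 9.82 with IL-2 alone and 7.01 to 7.69 in untreated cells. It had reached the untreated range at 1 µM sample 1 and at 4 µM (slope -0.56 ± 0.10, adjusted p = 0.0043, and -0.43 with an adjusted p of 0.34 without the 0.0625 µM sample).

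Other members of that list fell over a similar range. Bcl2, an inhibitor of apoptosis, was still at 10.71 at 0.0625 µM and at 10.15 and 10.34 at 0.25 µM, against 10.51 to 10.71 with IL-2 alone, and reached 8.15 at 4 µM, within the untreated range of 7.94 to 8.64. Its slope was -0.92 ± 0.10 (limma adjusted p = 1.7e-05). The feedback inhibitor Cish fell by 0.61 ± 0.08 per step, the cell cycle gene Ccnd2, which encodes cyclin D2, by 0.84 ± 0.10, and the growth regulator Myc by 0.58 ± 0.10. The costimulatory receptor Tnfrsf9 fell by 0.98 ± 0.10. Without the 0.0625 µM sample Myc had an adjusted p of 0.067 by limma, and Bcl2, Cish, Ccnd2 and Tnfrsf9 kept their calls. The feedback inhibitor Socs2 had a slope of -0.17 (adjusted p = 0.26) and the transcription factor gene Stat5a one of 0.03 (adjusted p = 0.87). Jak1 itself stood between 10.29 and 10.84 over the 6 samples (slope 0.19 ± 0.06, adjusted p = 0.11).

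Cytokine, granule and NK receptor genes had a larger share of their log2 rise left at 0.25 µM. The lists share members, so they are not separate groups. Gzmb and Prf1 are also IL-2 and STAT5 targets, as are Xcl1 of the cytokine list and Socs1 of the interferon-gamma list. Of 21 cytokine and chemokine genes, 7 fell and 1 rose (the chemokine Ccl9, 0.65), against 1.73% and 0.992% of all genes. Of the 7 raised at least 2-fold by IL-2, 6 were lost only at 1 or 4 µM, against 45.5% of all 334 genes so raised. The median percent left over these 7 was 82.3% at 0.0625 µM, 74.5% and 67.6% at 0.25 µM, 23.4% and 5.69% at 1 µM, and -10.3% at 4 µM. Of 23 granule proteins and death ligands, 7 fell and none rose, among them the pore-forming protein gene Prf1 (-0.74 ± 0.13) and the granule protein gene Nkg7 (-0.63 ± 0.10). Prf1 had a slope of -0.80 without the 0.0625 µM sample (limma adjusted p = 0.10). Of 30 NK receptors and adaptors, 5 fell and 1 rose (Cd7). Of the 9 raised at least 2-fold by IL-2, 8 were lost only at 1 or 4 µM, against the same 45.5%. The median percent left over these 9 was 82.5% at 0.0625 µM, 86.2% and 90.3% at 0.25 µM, 61.4% and 7.91% at 1 µM, and 4.51% at 4 µM. Ncr1, which encodes the activating receptor NKp46, stood at 10.22, 10.15, 10.46 and 10.41 with IL-2 alone, 10.53 at 0.0625 µM, 10.37 and 10.51 at 0.25 µM, 9.56 and 8.60 at 1 µM, 8.16 at 4 µM, and 8.15, 7.89 and 8.14 in untreated cells. Up to 0.25 µM no sample lay below the IL-2 range, and at 4 µM the level was at the top of the untreated range (slope -0.89 ± 0.12, limma adjusted p = 1.15e-04). The 2 samples at 1 µM disagreed in the receptor list by more than in any of the other lists described here. In these 3 lists 6, 2 and 4 genes fell without the 0.0625 µM sample, against 0.248% of all genes.

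Growth-related genes followed another course. Of the 17 ribosome biogenesis genes raised at least 2-fold by IL-2, 16 belonged to the low-dose class, against 53.6% of all 334 genes so raised. The median percent left over the 17 was 61.9% at 0.0625 µM, 30.9% and 41.9% at 0.25 µM, 28.8% and 24.1% at 1 µM, and 2.89% at 4 µM. Of the 43 measured, 4 fell and none rose (all genes: 1.73% and 0.992%), with a median slope of -0.14. The 4 included Rrp1b (-0.43 ± 0.08), a nucleolar protein gene, and Wdr43 (-0.35 ± 0.09), a factor of ribosomal RNA processing. After quantile normalization 14 fell, against 547 of all 19752 genes. No member fell without the 0.0625 µM sample. Of the 8 chaperone genes raised at least 2-fold, 7 belonged to the low-dose class, against the same 53.6%. Medians over the 8 were 42.7%, then 17.5% and 26.1%, then 36.0% and 28.3%, then -5.86%. None of the 24 chaperone genes measured had a slope past the threshold. After quantile normalization 2 fell, against the same 547 of all genes. Hspd1, the mitochondrial chaperonin HSP60, was at 8.20 at 0.0625 µM, 7.79 and 7.69 at 0.25 µM, 7.79 and 7.90 at 1 µM and 7.27 at 4 µM, against 8.48 to 8.93 with IL-2 alone and 7.30 to 7.74 in untreated cells. Its 0.25 and 1 µM samples did not separate, and its slope was -0.23 (adjusted p = 0.12). Of 24 measured genes for making polyamines, nucleotides and one-carbon units, 2 fell and none rose, against 1.73% and 0.992% of all genes. After quantile normalization 8 of them fell, against 547 of all genes. Of the 9 raised at least 2-fold by IL-2, 7 belonged to the low-dose class and 2 to the high-dose class. For all 334 genes so raised the shares were 53.6% and 45.5%. Srm, spermidine synthase, 1 of the 2 in the high-dose class, had 9.97 at 0.0625 µM, 9.28 and 9.34 at 0.25 µM, 8.40 and 8.35 at 1 µM and 8.29 at 4 µM, against 9.97 to 10.25 with IL-2 alone and 7.71 to 8.16 in untreated cells (slope -0.63 ± 0.10, adjusted p = 9.1e-04, and -0.58 with an adjusted p of 0.11 without the 0.0625 µM sample).

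The spread of percent left among the IL-2 samples was wide for the growth lists. Over the 8 chaperone genes the 4 IL-2 samples had medians of 62.7%, 105%, 109% and 122%, and the untreated samples 32.1%, -31.6% and -0.610%. Over the 9 NK receptor genes the IL-2 samples lay between 91.7% and 110% and the untreated ones between -7.69% and 0.436%. The value of 42.7% for chaperones at 0.0625 µM was below the lowest IL-2 sample by less than the IL-2 samples differed among themselves.

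**Figure D4:**
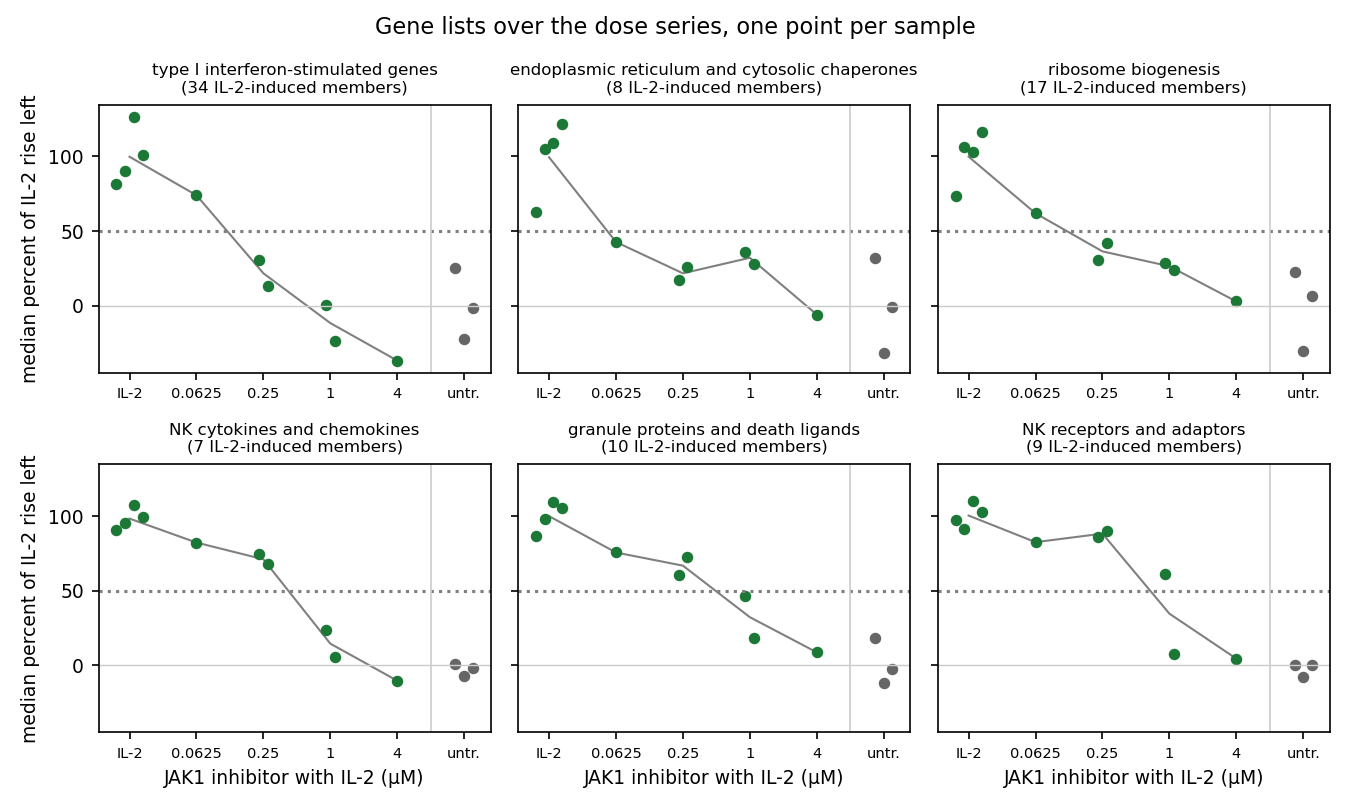
Median percent of the IL-2 rise left (y axis) over the IL-2-induced members of 6 gene lists, for each sample with IL-2 alone, the JAK1 inhibitor at 4 doses in µM, and untreated (x axis); lines join group means and the dotted line marks 50%. At 0.25 µM the interferon-stimulated list lies at 30.5% and 13.1% and the NK receptor list at 86.2% and 90.3%.

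Of 38 JAK-STAT pathway genes, 8 fell and 1 rose (Il7r), against 1.73% and 0.992% of all genes. Without the 0.0625 µM sample 2 fell and none rose (0.248% and 0.0354% of all genes). Of 34 G1 and G1/S genes, 1 fell (Ccnd2), and of 29 G2/M genes none passed the threshold in either direction. Of 21 translation factors and tRNA synthetases 1 rose, the Eif2s2 described above. Among 28 FOXO and quiescence genes, 3 rose and 1 fell, against the same shares of all genes. The risers were Il7r (0.61 ± 0.09), the alpha chain of the IL-7 receptor, the chemokine receptor gene Cxcr4 (0.36 ± 0.06) and the egress receptor gene S1pr1 (0.41 ± 0.08), and none of the 3 passed the threshold without the 0.0625 µM sample. Il7r stood at 6.78 at 0.0625 µM, 7.56 and 7.75 at 0.25 µM, 8.35 and 8.32 at 1 µM and 8.58 at 4 µM, against 6.51 to 6.88 with IL-2 alone and 8.20 to 8.80 in untreated cells. Of 21 stress and apoptosis genes, 1 rose (Hmox1, heme oxygenase, 0.48 ± 0.12) and 1 fell (Egr1, an immediate early factor, -0.33 ± 0.09). Neither passed in the lower scale alone (limma adjusted p = 0.22 for Hmox1 and 0.18 for Egr1) or without the 0.0625 µM sample (0.42 and 0.18), nor without sample 1 at 1 µM (0.065 and 0.072) or either sample at 0.25 µM (0.061 and 0.066, 0.051 and 0.069). Without the 4 µM sample Egr1 had an adjusted p of 0.37, and with the replicate number as a block Hmox1 had one of 0.15.

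**Figure D5:**
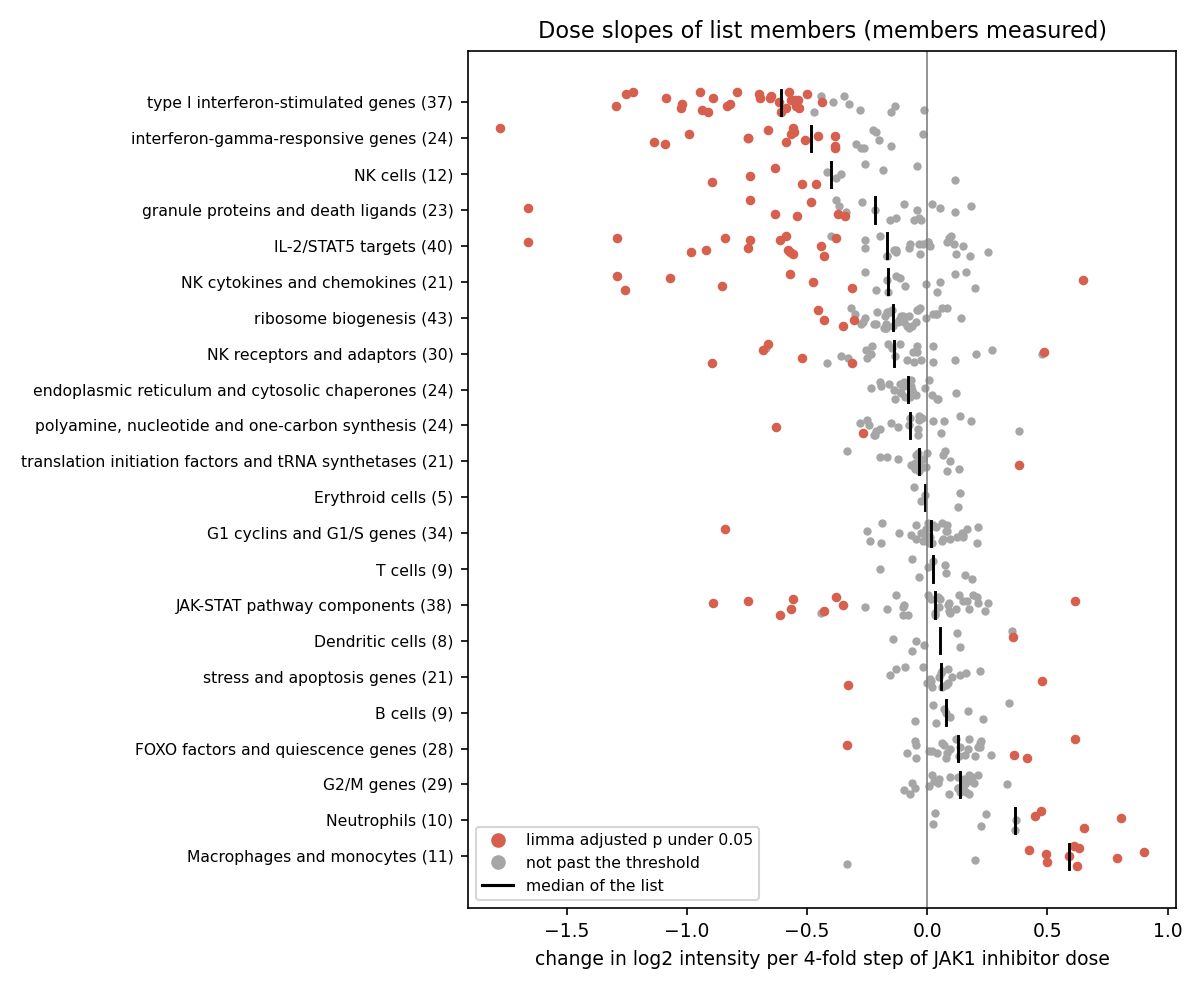
Slope of log2 intensity per 4-fold step of JAK1 inhibitor dose (x axis) for each measured member of 22 gene lists (rows, with the number of members); red points passed an adjusted p of 0.05 by limma and black bars are list medians. The interferon lists lie furthest to the left (medians -0.61 and -0.48) and the macrophage and monocyte markers furthest to the right (0.59).

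The 10 largest rises with dose were those of Adgre4 (0.90), an adhesion receptor of macrophages, Clec4n (0.86), the fungal receptor dectin-2, Hpgd (0.83), which degrades prostaglandins, the neutrophil collagenase Mmp8 (0.81), isocitrate dehydrogenase Idh1 (0.80), the matrix proteoglycan Vcan (0.79), the lectin receptor Clec4d (0.74), the RNA sensor Tlr8 (0.73), phosphogluconate dehydrogenase Pgd (0.73) and the lipid receptor Cd36 (0.71). Clec4d stood at 5.64, 5.63, 5.86 and 5.73 with IL-2 alone, 5.91 at 0.0625 µM, 6.71 and 6.43 at 0.25 µM, 7.75 and 7.81 at 1 µM, 7.83 at 4 µM, and 8.08, 8.18 and 7.98 in untreated cells. It was lower with IL-2 than untreated and climbed toward the untreated level as the dose rose, with no overlap between 0.0625, 0.25 and 1 µM (slope 0.74 ± 0.09, limma adjusted p = 5.1e-05). Pgd differed from the other genes at the lowest dose, where it was at 8.34, below the IL-2 samples at 8.98 to 9.29. It was at 8.76 and 9.11 at 0.25 µM, 10.10 and 10.09 at 1 µM and 10.25 at 4 µM, and at 9.59 to 10.18 in untreated cells (slope 0.73 ± 0.09, adjusted p = 6.2e-05). Without the 0.0625 µM sample Adgre4 (0.76, adjusted p = 0.14), Clec4n (0.71, adjusted p = 0.078), Mmp8 (0.78, adjusted p = 0.099), Vcan (0.86, adjusted p = 0.089) and Cd36 (0.63, adjusted p = 0.32) did not pass the threshold.

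Markers of some other cell types moved with the dose. Of 11 macrophage and monocyte markers measured 9 rose and none fell, of 10 neutrophil markers 4 rose and none fell, of 8 dendritic cell markers 1 rose, and none of the 9 B cell, 9 T cell and 5 erythroid markers passed the threshold. Over all genes 0.992% rose and 1.73% fell. Of 12 NK markers 5 fell and none rose. IL-2 had raised 10 of these 12, and 9 of them at least 2-fold. The NK sum therefore cannot tell the share of NK cells from the IL-2 response itself. IL-2 had lowered 9 of the 11 macrophage and monocyte markers, 6 of the 10 neutrophil markers and 4 of the 9 B cell markers (2.59% of all genes). In those sums, too, the share of cells cannot be told from the IL-2 response. The summed linear intensity of the macrophage and monocyte markers was 1934 to 2649 with IL-2 alone, 3276 at 0.0625 µM, 4438 to 4753 at 0.25 µM, 7430 to 8409 at 1 µM, 7882 at 4 µM and 7658 to 9130 in untreated cells. That of the NK markers ran in the opposite direction, at 9545 to 12621 with IL-2 alone, 9434 at 0.0625 µM, 8009 to 9289 at 0.25 µM, 3982 to 6542 at 1 µM, 4324 at 4 µM and 3142 to 3866 in untreated cells. The neutrophil sum was 3054 to 3177 with IL-2 alone, 3253, then 4024 to 4073, then 4489 to 4845, then 5602 over the doses, and 4867 to 5546 in untreated cells. The B cell sum was 5723 to 6268 with IL-2 alone, 6114, then 6514 to 6850, then 7378 to 7564, then 7226 over the doses, and 6958 to 7812 in untreated cells. The dendritic cell sum was 756 to 839 with IL-2 alone, 985, then 1124 to 1241, then 1303 to 1366, then 1197 over the doses, and 1044 to 1244 in untreated cells. The B cell sum was thus above the IL-2 range from 0.25 µM on and the dendritic cell sum from 0.0625 µM on, although 1 of their 17 markers passed the threshold. That marker, Cd209a, lost its call without the 0.0625 µM sample, where its slope was 0.083. The T cell sum was 1604 to 1788 with IL-2 alone, 1718, then 1772 to 2042, then 1878 to 1978, then 1851 over the doses, and 1303 to 1797 in untreated cells. The part of the marker shifts in the slopes of other genes was not tested. Without the 0.0625 µM sample none of the macrophage, monocyte or neutrophil markers passed the threshold. Without the 4 µM sample 9 and 2 did so, where 184 of all 19752 genes rose.

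The same return toward untreated levels was seen in the genes that IL-2 had lowered at least 2-fold. There were 120 of them, and 69 rose with dose, against 0.992% of all genes. The mean percent of the IL-2 fall left was 79.3% at 0.0625 µM, 51.9% and 45.9% at 0.25 µM, 3.13% and -1.07% at 1 µM, and 8.59% at 4 µM. For 61 of the 120, at most 50% was left from 0.0625 or 0.25 µM on, and for 57 only from 1 or 4 µM on. In both samples at 1 µM the IL-2-lowered genes had less of their change left than the IL-2-raised genes, which had 28.2% and 12.4%. That difference was not tested.

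Between neighbouring doses, the step between 0.25 and 1 µM, the only one with 2 samples on both sides, held 58 calls against 1 and none for the others. At 1 µM against 0.25 µM, 32 genes were lower (0.162% of all genes) and 26 higher (0.132%) by limma, with 1675 genes at an unadjusted p under 0.05. Quantile normalization gave 143 lower and 151 higher genes. The largest falls were Cxcl9 (-2.62 ± 0.30, adjusted p = 3.0e-04), Gzmb (-2.32 ± 0.45, adjusted p = 0.024), Ifng (-2.01 ± 0.22, adjusted p = 3.0e-04), Cxcl10 (-1.98 ± 0.35, adjusted p = 0.012) and Xcl1 (-1.85 ± 0.27, adjusted p = 0.0032). The largest rises were Snord37 (1.64), a small nucleolar RNA, Vcan (1.61), Adgre4 (1.52), Cd14 (1.47), a receptor for bacterial lipopolysaccharide, and Cd36 (1.4). Lipa, the lysosomal acid lipase, followed at 1.38. Within each scale alone all 58 had a difference of the same sign, which is no separate support, since the step is the average over these scales. The number of calls depended on single samples: without sample 2 at 1 µM none was called (941 at an unadjusted p under 0.05), without sample 1 at 1 µM 37, without sample 1 at 0.25 µM 7, and without sample 2 at 0.25 µM 14. Without sample 2 at 1 µM, Cxcl9 differed by -2.34 and Ifng by -1.70 (adjusted p = 0.089 for both). Within 1 scale, with 1 sample per dose, no gene was called on either scale.

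At the ends of the series 1 dose of each pair had a single sample, assumed to vary like the other groups. At 0.25 µM against 0.0625 µM, 1 gene passed the threshold, the microRNA gene Mir465, which was chosen after its value was seen. At an unadjusted p under 0.05 there were 875 genes. At 4 µM against 1 µM no gene passed by limma (1860 at an unadjusted p under 0.05), and the median of all genes was -0.18. Under quantile normalization that median was -0.0055, and again no gene passed. A p that misses the threshold here does not show that the doses acted alike.

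The dose trend was also set against that of the JAK3 inhibitor over the shared range of 0.25 to 4 µM, as the difference of the changes per 4-fold step. Ifng and Clnk, an adaptor of immune receptor signalling, fell more steeply with the JAK1 inhibitor (0.0101% of all genes were called). For Ifng the difference was -1.33 ± 0.17 (limma adjusted p = 0.0053) and for Clnk -1.11 ± 0.18 (adjusted p = 0.049). At 0.25, 1 and 4 µM of the JAK1 inhibitor Ifng had 9.17 and 8.69, then 7.19 and 6.64, then 5.99, against 6.03 and 6.30, then 6.14 and 6.14, then 5.77 and 5.99 with the JAK3 inhibitor. With the JAK3 inhibitor Ifng thus lay near the untreated samples (6.09, 6.27 and 6.09) at each of these doses. Clnk had 7.80 and 7.36, then 6.36 and 5.94, then 5.5 with the JAK1 inhibitor, against 5.14 and 5.65, then 5.26 and 5.47, then 5.25 and 5.8 with the JAK3 inhibitor. At an unadjusted p under 0.05 there were 553 genes. Neither gene passed without sample 1 at 0.25 µM of the JAK1 inhibitor (Ifng -1.19, adjusted p = 0.082; Clnk -0.98, adjusted p = 0.27) or without sample 1 at 0.25 µM of the JAK3 inhibitor (Ifng -1.25, adjusted p = 0.10; Clnk -0.96, adjusted p = 0.50).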

How the data were processed

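NK cell RNA was hybridised to Affymetrix Mouse Gene 1.0 ST arrays, 1 per sample. The authors deposited linear intensity values made with Affymetrix Power Tools and RMA, per the submitters' processing notes; versions are not given in the sources used here. Of 24922 probe sets, 21425 had 1 gene symbol, and the brightest probe set of each gene was kept (19752 genes). Values were taken to log2. The number of arrays limits the precision.

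Limma 3.58.1 (R 4.3.3) was fitted over all 19 samples with an intensity trend and a term for the 2 scales of the deposited values. The JAK1 inhibitor samples entered as a line on log2 dose for the slope and as group means for the other comparisons. Benjamini-Hochberg adjustment covered all genes, and the threshold was 0.05. Promoter sequences came from RefSeq (GRCm38.p6).

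The members, the gene lists and the rule for named genes were chosen with earlier results of these data known. Named genes were the largest slopes and steps past the threshold, up to 3 members per list, the 5 largest IL-2 rises per class of loss, and a fixed panel; predicted genes could be passed over. Cd7, Ccl9, Ddx58, Snord37 and Mir465 were named outside it after their values were seen. On simulated data of 19752 genes, the slope test recovered 89% of 100 slopes of 0.5 per step and 100% of those of 1, with 7 false calls. The simulated slopes were exactly linear and the noise was independent between genes and samples, without identical values. These rates therefore do not show how well the test does on the real arrays. Other settings tried were quantile normalization, each scale alone, probe set averaging, a filter on dim genes, no trend, a replicate block and leaving out each sample.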

Additional observations from a re-analysis of the deposited data

Results flagged for a closer look

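In 5 of the 95 genes taken by the naming rule, 1 of the 4 samples with IL-2 alone stood apart from the other 3, with a gap to its nearest neighbour that took up most of the range of the group. The share of the range was 0.915 for Alas2, an enzyme of heme synthesis, 0.832 for Cxcl10, 0.837 for Myc, 0.929 for Pnp, a nucleoside phosphorylase, and 0.836 for Socs2, against a critical value of 0.829. Chance alone gives about 1 in 20 such groups.

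The change per 4-fold step over 0.25 to 4 µM differed between the JAK1 and the JAK3 inhibitor in 2 genes by limma, by -1.33 for Ifng (adjusted p = 0.0053) and by -1.11 for Clnk (adjusted p = 0.049). Both calls were lost without sample 1 at 0.25 µM of either inhibitor.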

How the results depend on the processing

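The slope count of 538 became 1064 after quantile normalization, 147 in the lower scale alone, 58 without the 0.0625 and 4 µM samples and 56 to 1210 when 1 sample was left out. Without those 2 samples the slope of Eif2s2 was -0.0039 (adjusted p = 1.00 by limma). The 58 calls at 1 against 0.25 µM became 294 after quantile normalization, 0 in either scale alone and 0 to 59 with 1 sample left out. The other steps had 0 to 1 calls (0.25 against 0.0625 µM, 0 also in the lower scale and without the dimmest genes) and 0 to 6 (4 against 1 µM).

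For IL-2 against untreated, 1808 calls became 962 in the lower scale and 1210 to 3069 with 1 sample left out. The 2 differences between inhibitors became 6 after quantile normalization, 0 in the lower scale, 1 with probe sets averaged, and 0 to 6 with 1 sample left out. With the replicate number as a block, counts were 499 (slope, 98 higher and 401 lower), 462 (1 against 0.25 µM), 3233 (IL-2) and 10 (inhibitors). Same-numbered samples at 0.25 and 1 µM deviated in opposite directions (r = -0.365). In both groups sample 1 lay on the higher scale and sample 2 on the lower, so the scale term can take up a shared effect. The correlation therefore cannot decide on pairing. The numbers were not taken as pairing, and a crossed block, added after seeing the data, gave 137 calls at 1 against 0.25 µM.

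The low-dose and high-dose classes held 279 and 248 genes in the lower scale, 482 and 445 at 1.5-fold, 60 and 236 at a loss of 75%, and 146 to 248 and 94 to 304 with 1 sample left out. Mean percent left was 17.4% and -1.44% at 1 µM after quantile normalization, and in the lower scale 62.4%, 26.0% and 9.30% at 0.0625, 1 and 4 µM. With 1 sample left out it ranged over 65.2 to 73.7% (0.0625 µM), 40.4 to 55.7% and 39.5 to 51.0% (0.25 µM), 18.9 to 47.1% and -1.49 to 26.8% (1 µM), and -17.6 to 8.54% (4 µM). The causes were not tested.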
